A study of Mus musculus with 12 samples.

Results

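The genes described here handle iron in the liver. They are the 10 transcripts Hamp, Hamp2, Tfrc, Tfr2, Trf, Fth1, Ftl1, Slc40a1, Hfe2 and Cp, taken by their symbols from 23420 gene symbols in each table of counts, and each of the 10 was found and passed the filter on low counts in every comparison. Liver mRNA was profiled with the Lexogen QuantSeq 3′ kit in 12 mice on a C57BL/6 background, killed at Zeitgeber time (ZT) 10 at about 20 weeks of age. Wild type females, Siah2-/- females, wild type males and Siah2-/- males numbered 3 each, and all were fed normal chow under a light-dark cycle. Siah2 encodes a ubiquitin ligase, and the study asked whether its loss changes liver transcripts in each sex. The mutation was constitutive and homozygous, and the genotypes were kept as separate but related lines, so that line and genotype cannot be told apart. The sexes were deposited in separate tables, so that sex and table cannot be told apart either.

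The liver both stores iron and sets its level in the body. Hepatocytes release hepcidin, a peptide that binds ferroportin, the cell's iron exporter, and sends it for degradation. Transcription of its gene is raised by bone morphogenetic protein (BMP) signals, which hemojuvelin and transferrin receptor 2 tune to the iron in plasma, and by interleukin-6 through STAT3. Inside cells, iron regulatory proteins bind hairpins called iron-responsive elements, which hold back translation of the ferritins and ferroportin when iron is low and protect the mRNA of transferrin receptor 1 from decay. Their effect on ferritin is therefore largely on protein, which counts of mRNA do not measure.

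Mice have a pair of hepcidin genes side by side on chromosome 7. In GRCm38.p6, the assembly of the mm10 build that the submitters' processing notes name, RefSeq places Hamp at chr7:30942368-30944029 and Hamp2 at chr7:30922372-30924181, both on the minus strand. The 250 bases before each start are shown because they are the sequences that these 2 genes share and in which they differ. Capitals mark, in order, the core of the BMP response element or the bases aligned with it, and the STAT3 site.
Hamp, chr7:30944030-30944279: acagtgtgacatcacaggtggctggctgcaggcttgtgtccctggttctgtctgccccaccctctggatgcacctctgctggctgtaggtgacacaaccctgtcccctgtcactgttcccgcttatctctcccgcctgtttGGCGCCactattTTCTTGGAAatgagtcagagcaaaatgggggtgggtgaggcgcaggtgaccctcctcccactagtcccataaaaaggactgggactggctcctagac
Hamp2, chr7:30924182-30924431: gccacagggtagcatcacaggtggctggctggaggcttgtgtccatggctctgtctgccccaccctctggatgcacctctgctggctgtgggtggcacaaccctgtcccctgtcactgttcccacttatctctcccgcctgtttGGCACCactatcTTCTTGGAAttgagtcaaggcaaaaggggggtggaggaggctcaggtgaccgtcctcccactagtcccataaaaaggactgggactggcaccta
Of 247 aligned bases, 227 (91.9%) were identical. The BMP core GGCGCC, searched on both strands, began 109 bases before the start of Hamp and was not in this window of Hamp2, where the aligned bases differed by 1 substitution, G4A, counted from 1 at the 5′ end of Hamp's element. The STAT3 site TTCTTGGAA was in both windows, with 0 substitutions. Among 32851 RefSeq promoter windows of this length, 9.59% held GGCGCC and 0.365% held TTCTTGGAA. A match of letters is a description and not a site of binding.

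The iron-responsive elements of Tfrc, Fth1, Ftl1 and Slc40a1 are shown because these members share them. They were searched as a C, 5 bases, the loop CAGTGN without a G at its last base, and 5 bases that pair with the first 5, in the GENCODE M1 transcripts of the NCBIM37 assembly, and the loop is in capitals.
Tfrc, 3′ UTR, transcript base 3321: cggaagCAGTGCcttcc
Tfrc, 3′ UTR, transcript base 3700: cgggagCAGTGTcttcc
Tfrc, 3′ UTR, transcript base 3765: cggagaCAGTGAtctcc
Tfrc, 3′ UTR, transcript base 3812: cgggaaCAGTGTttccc
Fth1, 5′ UTR, transcript base 36: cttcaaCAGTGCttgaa
Ftl1, 5′ UTR, transcript base 84: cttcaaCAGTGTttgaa
Slc40a1, 5′ UTR, transcript base 108: cagctaCAGTGTtagct
The 4 matches of Tfrc, which encodes transferrin receptor 1, lay in the 3′ UTR. Those of Fth1 and Ftl1, the heavy and light chains of ferritin, and of Slc40a1, which encodes ferroportin, lay in the 5′ UTR. The elements of the 2 ferritins differed from each other in the last base of the loop alone. The other members searched had no match, and Tfr2 was not searched, since it had no usable transcript in that release.

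QuantSeq reads start from the poly(A) tail, so a longer transcript does not gain more of them, and levels are given in CPM, read counts divided by a library total that was scaled with the TMM method over all 12 mice. Totals ran from 1293688 to 4056144 reads. The labels describe RNA pooled from 3 livers and the study's methods individual livers, and the latter was used here. With 3 samples per group, p-values weigh a group difference against the spread between these samples, which the fits estimate with information shared across genes. Wild type female 1091 stood apart, with the highest or the lowest level of the 12 mice in 40.2% of 9806 genes, against at most 21.5% in any other mouse. Many results are therefore also given without it, while cell markers, inflammation readouts and correlations are given with it only. For Siah2 itself, the sources used here do not give where its 3′ tag lies relative to the deletion. Its transcript was at 13.5 ± 2.93 CPM (SD, n = 3) in wild type females, 10.7 ± 1.57 CPM in Siah2-/- females, and in males at 21.7 ± 5.15 CPM (wild type) against 13.9 ± 4.05 CPM (Siah2-/-), so these counts do not check the genotype labels. The 6 hepatocyte markers had sums (in CPM) from 34122 to 39166 for wild type and from 28255 to 37444 for Siah2-/- females, and from 25341 to 34233 for wild type and from 24865 to 29309 for Siah2-/- males.

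The 10 transcripts spanned a wide range of levels. Trf, which encodes the plasma iron carrier transferrin, had a mean of 8036 CPM over the 12 mice. Fth1 followed with 2251 CPM, Ftl1 with 1206 CPM and Cp, which encodes the copper oxidase ceruloplasmin, with 705 CPM. Hamp had 504 CPM, Hamp2 301 CPM and Tfr2, the receptor that senses iron-loaded transferrin in hepatocytes, 185 CPM. At the low end were Slc40a1 with 67.9 CPM, Hfe2, which encodes the BMP co-receptor hemojuvelin, with 62.4 CPM, and Tfrc with 17 CPM. From the lowest to the highest mouse, Hamp2 varied 186-fold, Hamp varied 6.68-fold and the other 8 between 1.48-fold (Cp) and 2.97-fold (Slc40a1).

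**Figure D1:**
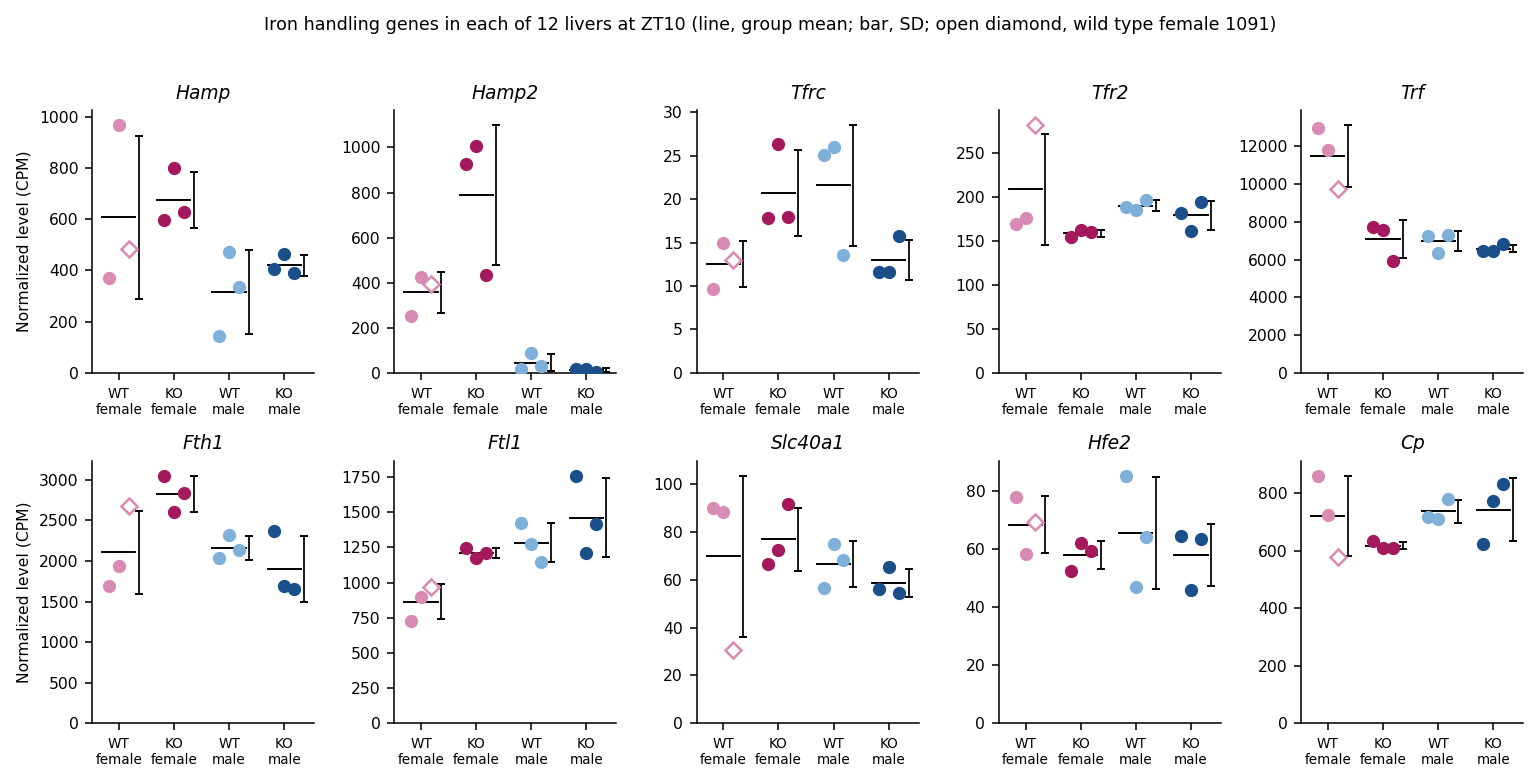
Level of each of the 10 iron handling genes (vertical axis, CPM, from 0) in the 12 mice by group, with 1 symbol per mouse, the group mean as a line and the SD as a bar. Hamp2 was at 253 CPM or more in each female and at 88.1 CPM or less in each male, Trf was at 9719 CPM or more in the 3 wild type females alone, and the open diamond, wild type female 1091, lay above the other 11 mice for Tfr2 and below them for Slc40a1 and Cp.

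Hamp2 was the member that varied most with sex and genotype. In wild type females its level was 253, 424 and 394 CPM in mice 1089, 1090 and 1091. In Siah2-/- females it was 925, 1007 and 432 CPM in mice 1070, 1104 and 1105. The Siah2-/- females were thus the higher group, but mouse 1105 lay just above the highest wild type female. In wild type males Hamp2 was at 19.0, 88.1 and 30.5 CPM in mice 1055, 1086 and 1087. In Siah2-/- males it was at 16.2, 19.4 and 5.40 CPM in mice 1075, 1076 and 1081. These 2 groups of males touched, since mouse 1076 lay above mouse 1055, and all 6 males lay below all 6 females. Behind the male values stood between 22 and 176 reads per library, and behind the female values between 705 and 3436.

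Hamp, the gene of the hormone hepcidin, varied less. Its level among females was 370.0, 967 and 484 CPM (wild type) against 595, 798 and 629 CPM (Siah2-/-), and among males 145, 472 and 334 CPM (wild type) against 406, 464 and 388 CPM (Siah2-/-), in the order of mice given for Hamp2. Genotypes overlapped within each sex. The sexes overlapped in wild type mice and did not overlap in Siah2-/- mice, in which each female was above each male. The wild type mice were the more spread out, with an SD of 317 CPM in females and 164 CPM in males, against 109 CPM and 39.8 CPM in the corresponding Siah2-/- mice.

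Because the 2 hepcidin genes are near copies, their counts may not be fully separate. The last 300 bases of their transcripts aligned over 270 bases with 92.6% identity, and the longest identical run was 61 bases. How the authors' counting treated reads that match both is not stated in the sources used here. The share of Hamp2 in the counts of both genes was 40.6% (95% Wilson interval 38.3% to 42.9%), 30.5% (29.2% to 31.8%) and 44.9% (43.0% to 46.7%) in wild type females 1089, 1090 and 1091. It was 60.9% (59.6% to 62.1%), 55.8% (54.4% to 57.2%) and 40.7% (38.5% to 43.0%) in Siah2-/- females 1070, 1104 and 1105. In males it was 11.6% (8.0% to 16.6%), 15.7% (13.7% to 18.0%) and 8.36% (6.92% to 10.1%) in wild type mice 1055, 1086 and 1087, and 3.83% (2.86% to 5.12%), 4.02% (3.02% to 5.33%) and 1.37% (0.909% to 2.07%) in Siah2-/- mice 1075, 1076 and 1081. The 3 Siah2-/- males were each below the 3 wild type males, whereas Siah2-/- female 1105 lay among the wild type females. These intervals treat each read as an independent count and leave out the spread between mice. Reads carried no molecular identifiers, so repeated reads of 1 molecule could not be told apart, and the intervals may be too narrow.

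**Figure D2:**
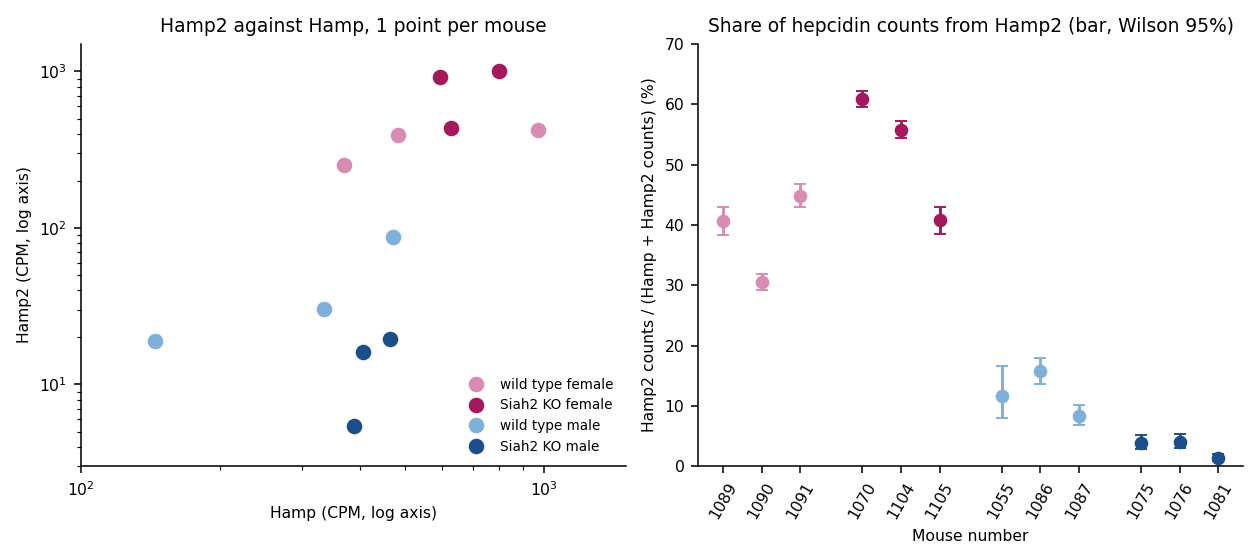
Left, level of Hamp2 against that of Hamp (both CPM on log axes), with 1 point per mouse, coloured by group. Right, share of Hamp2 in the counts of both genes (%) in each mouse with its 95% Wilson interval, which shows females between 30.5% and 60.9%, wild type males between 8.36% and 15.7% and Siah2-/- males between 1.37% and 4.02%.

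Within females, the comparison asked which transcripts differ between Siah2-/- and wild type livers. The quasi-likelihood test of edgeR, adjusted by Benjamini-Hochberg over 9465 genes, called 0 of the 10 members at an adjusted p under 0.05, where 0% of all genes tested were called. An unadjusted p under 0.05 was found for 3 members, Hamp2, Tfrc and Trf, where 15.6% of all genes passed. The groups did not overlap for 5 of the 10, with Hamp2, Tfrc and Ftl1 higher (11.5% of all genes tested) and Trf and Tfr2 lower in Siah2-/- females (11.9% of all genes), while 23.4% of all genes tested did not overlap in either direction. The median log2 fold change of the 10 was 0.13, against −0.03 over all genes.

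Hamp2 was 2.19-fold higher in Siah2-/- females by edgeR, with a log2 fold change of 1.13 (SE 0.35) and an adjusted p of 0.168. DESeq2 called it with an adjusted p of 0.0445, where 3.8% of the genes with an adjusted p were called. Without wild type female 1091, edgeR called it (log2 fold change 1.22, adjusted p = 0.0471) and DESeq2 did not (adjusted p = 0.155). Hamp had a log2 fold change of 0.14 (SE 0.35) with a 95% interval from −0.64 to 0.92, which overlapped that of Hamp2, from 0.36 to 1.90. The difference between the 2 genes was not tested. With genes kept at any count, edgeR called Hamp2 at a log2 fold change of 1.14 (2.82% of genes called). Its unadjusted p by edgeR was then 2.1e-04, against 0.00861 with the filter. Limma-voom with weights for the quality of each library called Hamp2, Trf, Fth1 and Ftl1 (11.2% of genes called).

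Trf and Tfrc, the carrier of iron in plasma and the receptor that takes it up, had opposite signs in females. Trf was at 12946, 11803 and 9719 CPM in the wild type females against 7752, 7579 and 5932 CPM in the Siah2-/- females. The genotypes did not overlap, and the Siah2-/- females overlapped both male groups, which ran from 6368 to 7299 CPM. The log2 fold change of Trf was −0.71 (SE 0.28), and its adjusted p was 0.257 (edgeR) or 0.080 (DESeq2). Without wild type female 1091, the lowest of its group, the log2 fold change was −0.80 and both tests called it, with adjusted p-values of 0.0280 (edgeR, where 9.64% of all genes were called) and 0.00127 (DESeq2, where 10.6% were called). Tfrc was at 9.68, 14.9 and 13.0 CPM in the wild type females against 17.8, 26.4 and 17.9 CPM in the Siah2-/- females. These levels rest on 27 to 72 reads per library. Each Siah2-/- female was above each wild type female, with a log2 fold change of 0.71 (SE 0.30) and an adjusted p of 0.291 by edgeR.

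The ferritin chains were higher on average in Siah2-/- females. Ftl1 was at 728, 895 and 972 CPM in the wild type females against 1245, 1175 and 1214 CPM in the Siah2-/- females, with a log2 fold change of 0.47 (SE 0.23) and an adjusted p of 0.364 by edgeR. Fth1 was at 1698, 1940 and 2677 CPM in the wild type against 3049, 2605 and 2839 CPM in the Siah2-/- females, with a log2 fold change of 0.41 (SE 0.27) and an adjusted p of 0.497. For Fth1 the groups met in wild type female 1091, whose level was within the range of the Siah2-/- mice. Without this mouse the log2 fold changes were 0.58 for Ftl1 and 0.64 for Fth1. EdgeR then gave both an adjusted p above 0.05, and DESeq2 called both. The last 300 bases of Ftl1 matched 6 other places in the NCBIM37 genome at 95% identity or more, so reads of Ftl1 could also have come from, or been lost to, such copies.

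Tfr2 and Hfe2, members of the hepcidin pathway, were lower on average in Siah2-/- females, without passing the test. Tfr2 was at 169, 176 and 282 CPM in the wild type females against 155, 162 and 160.3 CPM in the Siah2-/- females, with a log2 fold change of −0.41 (SE 0.25). Without wild type female 1091, which had the highest Tfr2 of the 12 mice, that value was −0.12. Hfe2 was at 77.8, 58.2 and 69.2 CPM in wild type against 52.5, 61.9 and 59.2 CPM in Siah2-/- females, with a log2 fold change of −0.25 (SE 0.22). The transcripts of iron export overlapped between the genotypes. Slc40a1 was at 90.0, 88.4 and 30.8 CPM in wild type against 66.5, 72.2 and 91.5 CPM in Siah2-/- females, with a log2 fold change of 0.12 (SE 0.37) that was −0.23 without mouse 1091. Cp, which oxidizes iron after its export, was at 861, 725 and 580.5 CPM in wild type against 633, 611 and 611 CPM in Siah2-/- females, with a log2 fold change of −0.24 (SE 0.24).

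Within males, edgeR called 0 of 8823 genes, so that 0% of all genes and 0 of the 10 members passed. An unadjusted p under 0.05 was reached by Hamp2 and Tfrc, where 4.05% of all genes passed. The groups overlapped for all 10 members, and 8.87% of all genes tested did not overlap. Hamp2 had a log2 fold change of −1.84 (SE 0.51, unadjusted p = 0.00290, adjusted p = 1.0 by edgeR). With genes kept at any count edgeR called it, with a log2 fold change of −1.80 and an unadjusted p of 3.9e-12, where 0.179% of genes were called. The call thus came with a far smaller p at nearly the same fold change, and why was not tested. DESeq2, which called 0.037%, did not call Hamp2. Without wild type male 1086, its highest wild type male, the value was −0.95. That mouse also had the highest sum of 8 Kupffer cell markers among the 6 males, 613 CPM against 87.5 to 244 CPM in the others. Cd5l and Marco made up 245 and 242 CPM of its sum, and the part of Kupffer cells in the Hamp2 values was not tested.

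Tfrc was lower on average in Siah2-/- males, the opposite of its sign in females. It was at 25.1, 26.0 and 13.6 CPM in wild type against 11.6, 11.7 and 15.7 CPM in Siah2-/- males, with a log2 fold change of −0.68 (SE 0.30, unadjusted p = 0.0410, adjusted p = 1.0 by edgeR). Wild type male 1087 lay between the Siah2-/- males, so the groups overlapped. The 95% intervals of the other 8 members all held 0. Hamp had a log2 fold change of 0.38 (SE 0.29), Slc40a1 of −0.21 (SE 0.18), Fth1 of −0.20 (SE 0.16), Ftl1 of 0.18 (SE 0.16) and Hfe2 of −0.17 (SE 0.22). Tfr2 had −0.10 (SE 0.15) and Trf −0.09 (SE 0.13), and for Cp the value was 0.00 (SE 0.15), with a 95% interval from −0.32 to 0.32. The 95% interval of Trf in males ran from −0.38 to 0.19 and that in females from −1.34 to −0.09.

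**Figure D3:**
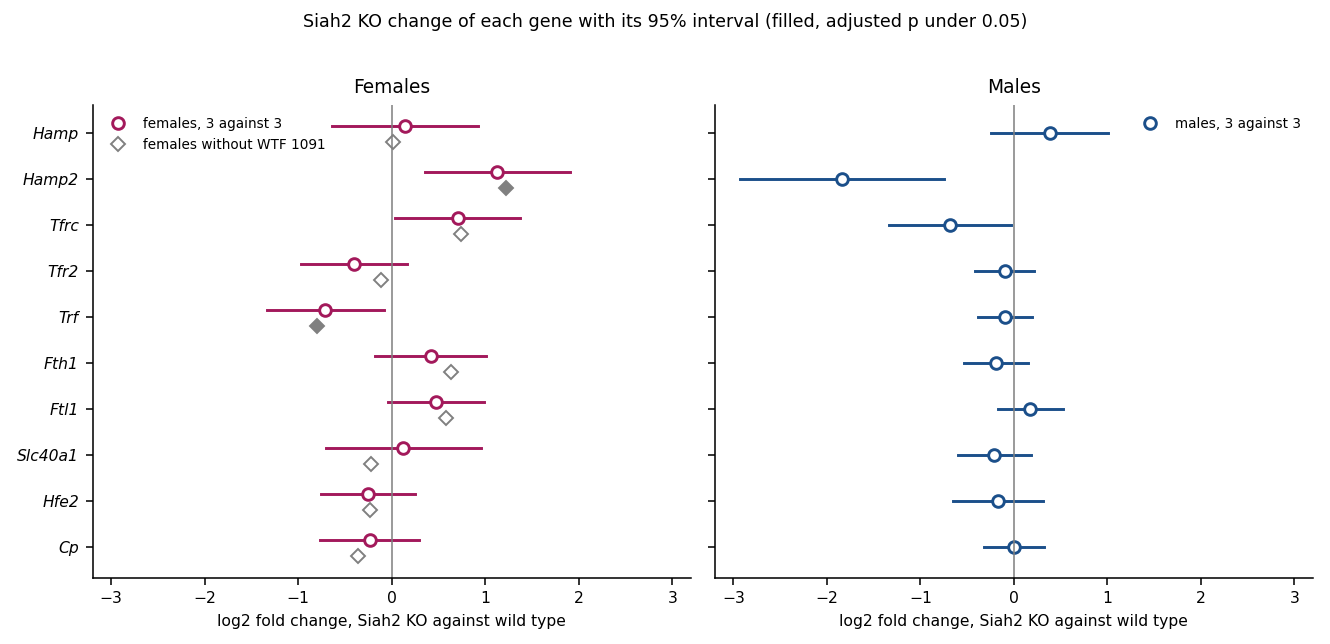
Log2 fold change of each member in Siah2-/- against wild type mice (horizontal axis) in females and in males by edgeR, with its 95% interval as a line. Filled symbols have an adjusted p under 0.05, and the grey diamonds give the females without wild type female 1091, where Hamp2 (1.22) and Trf (−0.80) are filled and Slc40a1 changes sign.

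Whether the Siah2-/- change differed between females and males was tested as such, in a fit of the 12 mice. EdgeR called 25 of 9806 genes, which is 0.255%, and 0 of the 10 members. An unadjusted p under 0.05 was found for 3 of the 10, Hamp2, Tfrc and Trf, where 14.1% of all genes passed. Hamp2 had the largest difference, 2.95 on the log2 scale (SE 0.71, 95% interval 1.45 to 4.45), with an unadjusted p of 7.3e-04 and an adjusted p of 0.0847 by edgeR. DESeq2 called it, with an adjusted p of 0.0339, where 4.03% of genes were called. Without wild type female 1091 both tests called it, at adjusted p-values of 0.0221 (edgeR, with 5.15% of all genes called) and 0.0391 (DESeq2, with 8.22% called). Without any other 1 mouse edgeR did not call it, and without wild type male 1086 the difference was 2.06 (adjusted p = 0.211). With genes kept at any count edgeR called Hamp2 at a difference of 2.94, where its unadjusted p fell to 8.0e-15 (1.82% of genes called). Library quality weights called Hamp2, Trf and Fth1 (5.69% called), as did DESeq2 without mouse 1091. Tfrc had a difference of 1.40 (SE 0.43, adjusted p = 0.142 by edgeR and 0.0854 by DESeq2). For Trf the difference was −0.61 (SE 0.28, adjusted p = 0.340 by edgeR), and for Fth1 0.61 (SE 0.31, adjusted p = 0.394). Hamp, at −0.25 (SE 0.52), and the other 5 members had differences of at most 0.33 in size.

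In wild type mice, females were compared with males. EdgeR called 130 of 9335 genes (1.39%), and among the members it called Hamp2 alone, which was 7.91-fold higher in females (log2 fold change 2.98, SE 0.51, adjusted p = 0.0191). Without wild type male 1055 or wild type male 1087 its adjusted p was 0.0943 or 0.149, with a 6.19-fold difference in the former case, and without wild type male 1086 the difference was 14.5-fold. DESeq2 called it with an adjusted p of 6.1e-08, where 3.68% of genes were called. The sexes did not overlap for 3 members, Hamp2 and Trf, both higher in females, and Ftl1, higher in males, where 22.7% of all genes did not overlap. Trf had a log2 fold change of 0.75 (SE 0.27, adjusted p = 0.218), which edgeR called without wild type female 1091, where 7.73% of all genes were called (log2 fold change 0.83, adjusted p = 0.0123). A fit of all 12 mice also called Trf (5.15% of genes called). Ftl1 had −0.53 (SE 0.25, adjusted p = 0.345), and was called with Hamp2 and Trf by library quality weights (8.59% of genes called) and by DESeq2 without mouse 1091 (11.9%). Hamp had 0.96 (SE 0.45, adjusted p = 0.352), with a 95% interval from −0.05 to 1.97, and among the alternatives run it was called only where genes were kept at any count (3.17% of genes called).

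In Siah2-/- mice, females were likewise compared with males. EdgeR called 3 of the 10, each higher in females, where 11.5% of 9102 genes were called in either direction and 5.69% were called as higher in females. Hamp2 was 61.2-fold higher in females (log2 fold change 5.94, SE 0.40, adjusted p = 1.5e-07). Hamp was 1.62-fold higher (log2 fold change 0.69, SE 0.16, adjusted p = 0.0132), and Fth1 1.49-fold higher (log2 fold change 0.58, SE 0.17, adjusted p = 0.0450). The call of Hamp was lost without Siah2-/- male 1075 or 1081 or Siah2-/- female 1104, with an adjusted p from 0.0536 to 0.0848, and that of Fth1 was lost without Siah2-/- male 1076 or 1081 or any of the 3 Siah2-/- females, with an adjusted p from 0.0517 to 0.193. In a fit of all 12 mice, which called 3.59% of genes, Hamp2 alone was called, and DESeq2, which called 8.2%, called the same 3 as edgeR. Fth1 had been at 2032, 2317 and 2139 CPM in wild type against 2374, 1690 and 1651 CPM in Siah2-/- males. The sexes also did not overlap for Tfrc (log2 fold change 0.66, adjusted p = 0.122) and Slc40a1 (0.39, adjusted p = 0.179), so that 5 of 10 members were apart, all higher in females, where 14.7% of all genes were apart in that direction and 30.7% in either. The Siah2-/- males had the lowest Slc40a1 on average, 58.5 ± 5.88 CPM (SD, n = 3), against 76.7 ± 13.1 CPM in Siah2-/- females. Among the 6 hepatocyte markers, 4 had a positive and 2 a negative log2 fold change between Siah2-/- females and males. EdgeR called Alb alone, which was 1.51-fold higher in females (log2 fold change 0.60, SE 0.17, adjusted p = 0.0383). Apob (−0.71, adjusted p = 0.0809 by edgeR) and Apoa1 (−0.39, adjusted p = 0.219 by edgeR) were the 2 lower in females. The part of hepatocyte RNA in the differences of Hamp and Fth1 was not tested.

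**Figure D4:**
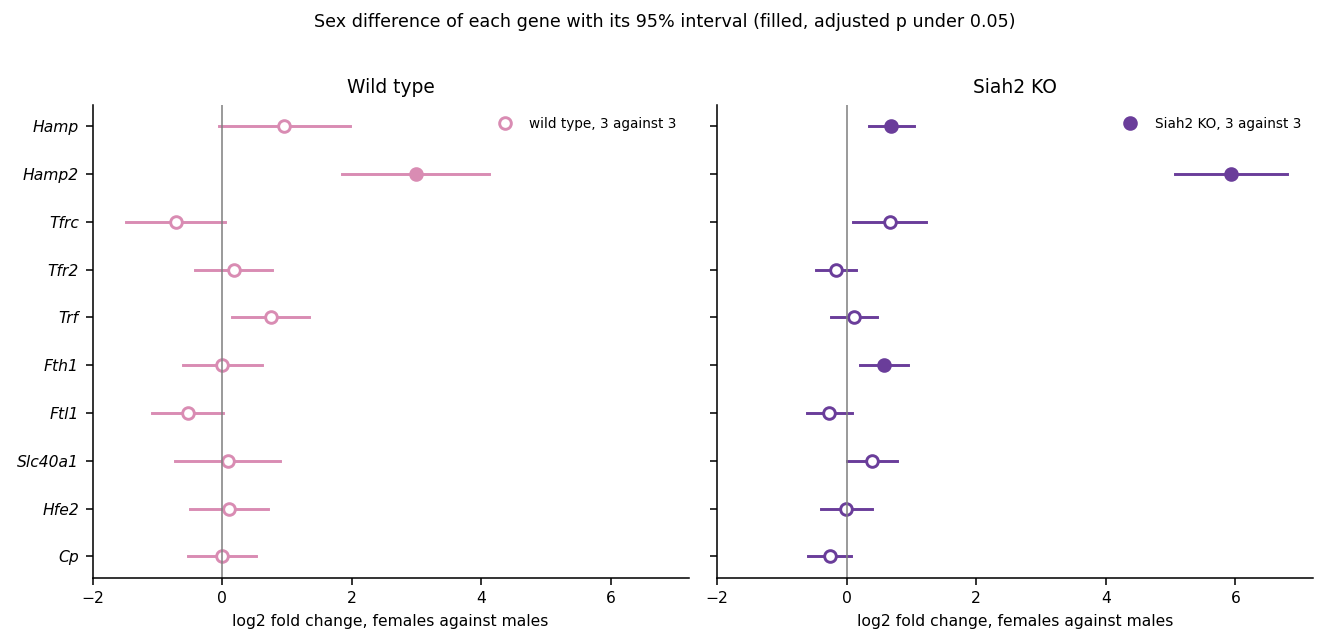
Log2 fold change of each member in females against males (horizontal axis) in wild type and in Siah2-/- mice by edgeR, with its 95% interval as a line and filled symbols for an adjusted p under 0.05. Hamp2 stands at 2.98 in wild type and 5.94 in Siah2-/- mice, and Hamp and Fth1 are the other filled symbols, in Siah2-/- mice.

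Among markers of other cells, edgeR called only Kupffer cell markers and the red cell marker Alas2 as different between the sexes. It called 0 of 5 sinusoidal endothelial, 0 of 3 stellate and 0 of 2 bile duct markers tested in either genotype. Of all genes, 1.39% were called in wild type and 11.5% in Siah2-/- mice. Of 8 Kupffer cell markers, each detected, 3 were called by edgeR as higher in wild type females than males (where 0.686% of all genes were) and 6 in Siah2-/- females than males (where 5.69% were), and their summed level ran from 479 to 634 CPM in wild type females, 355 to 830.3 CPM in Siah2-/- females, and among males from 87.5 to 613 CPM (wild type) and 104 to 244 CPM (Siah2-/-). Among these markers Marco had the opposite sign in wild type mice, at a mean of 49.0 CPM in females against 92.2 CPM in males. Marco made up 306 of the 830.3 CPM in Siah2-/- female 1070 and 242 of the 613 CPM in wild type male 1086. Kupffer cells take up spent red cells and carry ferroportin, and their part in the sex differences of Slc40a1, Fth1 and the hepcidin genes was not tested. In bulk liver, fewer cells of a type and less RNA per cell cannot be told apart. Of 5 red blood cell markers in the tables, 4 globins were listed at 0 in all 12 libraries. Alas2, the first enzyme of heme synthesis in red cell precursors, was between 8.43 and 25.1 CPM in females and between 83.6 and 154 CPM in males. The 7 inflammation readouts, each detected, had sums (in CPM) from 8461 to 14087 for wild type and from 7857 to 11221 for Siah2-/- females, and from 6961 to 8998 for wild type and from 6931 to 7909 for Siah2-/- males. Most of each sum was Fgb, at 5372 to 11268 CPM. Between genotypes in females, 4 of the 7 had a positive and 3 a negative log2 fold change. EdgeR called 0 of them, and DESeq2 called Crp, which was lower in Siah2-/- females (log2 fold change −1.09, adjusted p = 0.0241), where 3.8% of genes were called. The largest rise was that of Saa2 (log2 fold change 1.41, SE 0.48, adjusted p = 0.199 by edgeR and 0.0767 by DESeq2). Saa2 was at 131 CPM in Siah2-/- female 1070 against 53.1 and 30.5 CPM in 1104 and 1105. Between Siah2-/- females and males, edgeR called Saa1, Saa2 and Orm2 as higher in females, where 5.69% of all genes were. DESeq2 called neither Saa1 (adjusted p = 0.185) nor Saa2 (adjusted p = 0.0898). The part of inflammation in the hepcidin values was not tested.

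With both sexes combined, the 6 Siah2-/- mice were compared with the 6 wild type mice over 9020 genes. EdgeR called 1 gene (0.0111%) and none of the 10 members, and none of them had an unadjusted p under 0.05, which 5.65% of all genes did. The nearest was Trf, with a log2 fold change of −0.45 (SE 0.21, unadjusted p = 0.0518, adjusted p = 0.869). Hamp2 had 0.96 with an SE of 1.02, its values were apart by sex, and the sign changed to −0.17 once a term for sex was added. DESeq2, which called 0.0056% of genes, and limma-voom, which called 0%, also called 0 of the 10.

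The levels of some members ran opposite to each other across mice. Over the 12 mice, Pearson's r of log2 CPM was −0.89 between Fth1 and Cp, −0.85 between Trf and Ftl1 and −0.82 between Tfr2 and Slc40a1, and 0.66 between Hamp and Hamp2. These are descriptions over mice that share groups, sex and the library of wild type female 1091, which was extreme in Tfr2, Slc40a1 and Cp. Of 6707 genes whose mean level reached 10 CPM, the 3 whose levels were most like those of Hamp2 were Slc16a5 (r = 0.98), Rtn4 (0.95) and Slco1a4 (0.94), all 3 higher in females of both genotypes. Mean Slc16a5, a transporter of the monocarboxylate family, was 40.5 CPM in wild type females, 47.3 CPM in Siah2-/- females, and among males 9.38 CPM (wild type) and 3.80 CPM (Siah2-/-). Slc40a1 was most like Maf (r = 0.95), a transcription factor, and Trf was most like Rps28 (0.96), a ribosomal protein gene with a mean of 215 CPM in wild type females against 111 to 112 CPM in the other 3 groups. Hamp was most like Mfsd2a (0.93), a lipid transporter, and Tfrc, with the lowest counts, had the weakest best match, Tnrc6c (0.85).

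Another 55 iron genes in the tables were listed by role, with the values of these data known, and 48 of them were tested in females. EdgeR called 0 of the 48. DESeq2 called 2, Atoh8 and Steap4, where 3.8% of the genes with an adjusted p were called. With wild type female 1091 left out, edgeR called 8 of 49, where 9.64% of all genes were called. DESeq2 then called the same 8 of the 55 listed, not all of which had an adjusted p, where 10.6% of the genes with an adjusted p were called. Atoh8, a transcription factor that BMP signals induce and that acts on the hepcidin gene, was at 22.6, 36.4 and 11.1 CPM in wild type females against 4.58, 4.76 and 6.58 CPM in Siah2-/- females. It had a log2 fold change of −2.18 by edgeR (SE 0.45, adjusted p = 0.0962) and an adjusted p of 0.00291 by DESeq2. Male levels, between 5.86 and 11.2 CPM, were close to those of the Siah2-/- females. Steap4, a metalloreductase that can reduce iron, was at 64.5, 47.8 and 22.2 CPM in wild type against 97.5, 114 and 99.9 CPM in Siah2-/- females, with a log2 fold change of 1.20 (SE 0.35, adjusted p = 0.147 by edgeR and 0.0280 by DESeq2). Without mouse 1091, the lowest of its group, the log2 fold change of Steap4 was 0.89 (adjusted p = 0.0221 by edgeR). DESeq2 also called the sex difference of the change for Atoh8 (−2.59, adjusted p = 0.00629) and Steap4 (1.82, adjusted p = 0.0172), where 4.03% of the genes with an adjusted p were called. EdgeR called that difference for 0 of the 48, where 0.255% of all genes were called. Without mouse 1091 the differences by DESeq2 were −2.93 for Atoh8 and 1.51 for Steap4. EdgeR then called 5 of 49, these 2 among them, where 5.15% of all genes were called.

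Of the 19 genes of the hepcidin pathway tested, 3 had an unadjusted p under 0.05, all lower in Siah2-/- females, which is near the 15.6% found over all genes, and the median log2 fold change was −0.01. With wild type female 1091 left out, the median was −0.14, and edgeR called 5 of the 19, where 9.64% of all genes were called. Id2, a target of BMP signals, was at 365, 296 and 212 CPM in wild type against 177, 104 and 175 CPM in Siah2-/- females (log2 fold change −0.95, SE 0.29, adjusted p = 0.174 by edgeR), and at −1.12 (adjusted p = 0.0160) without mouse 1091. Id3, another such target, was at 250, 213 and 646 CPM in wild type against 435, 343 and 356 CPM in Siah2-/- females, with a log2 fold change of 0.02 (SE 0.39) that was 0.71 (adjusted p = 0.0376 by edgeR) without mouse 1091. Tmprss6, the protease that cuts hemojuvelin, was at 173, 166 and 518 CPM in wild type against 297, 323 and 284 CPM in Siah2-/- females, with a log2 fold change of 0.06 (SE 0.41) that was 0.83 (adjusted p = 0.0154 by edgeR) without mouse 1091. For Id3 and Tmprss6, mouse 1091 was above each Siah2-/- female and the other wild type females below each of them. Id1 had −0.14 (SE 0.41), and −0.39 without mouse 1091 (adjusted p = 0.496 by edgeR). The other calls without this mouse were Atoh8 (−2.52, adjusted p = 0.00232) and Bmp2, a ligand that induces hepcidin (−0.92, adjusted p = 0.0159, against −0.75 and 0.213 with it), which was named after its values were seen. Of 10 genes of heme and hemoglobin recycling, 8 had a negative sign, with a median of −0.41 and 0 calls by either test, and Slc48a1, which moves heme out of lysosomes, had −1.03 (SE 0.29, adjusted p = 0.141 by edgeR and 0.0870 by DESeq2). Without mouse 1091 edgeR called 2 of these 10, Slc48a1 (−1.14, adjusted p = 0.0209) and Lrp1, the receptor for hemopexin with heme, at −0.94 (adjusted p = 0.0152), the latter named after its values were seen. Of 7 genes of iron transport and reduction, 6 were positive with a median of 0.59, and Mon1a, which takes part in the trafficking of ferroportin, was the exception with −0.85 (SE 0.42). The 5 genes of iron sensing and ferritin turnover had a median of −0.06 and the 7 of mitochondrial iron and iron-sulfur clusters 0.34, with 0 calls each. Without mouse 1091 the medians were 0.33 for transport and reduction, −0.20 for heme recycling, −0.14 for iron sensing and 0.18 for mitochondrial iron. In males 46 of the 55 were tested, and neither edgeR nor DESeq2 called any. Id1 there was at 13.3 CPM in wild type against 8.21 CPM in Siah2-/- males (log2 fold change −0.75, SE 0.33, unadjusted p = 0.0391, adjusted p = 1.0 by edgeR). Mon1a was at 3.68 and 7.25 CPM (log2 fold change 1.04, SE 0.44, unadjusted p = 0.0319 by edgeR) and Steap4 at 92.8 and 61.5 CPM (log2 fold change −0.62, SE 0.27, unadjusted p = 0.0366 by edgeR), both with the opposite sign to that in females. With the sexes combined, Atoh8 had −1.08 (SE 0.42), Id2 −0.54 (SE 0.24) and Slc25a37, which carries iron into mitochondria, −0.33 (SE 0.17), each with an adjusted p of 0.866 or more by edgeR.

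**Figure D5:**
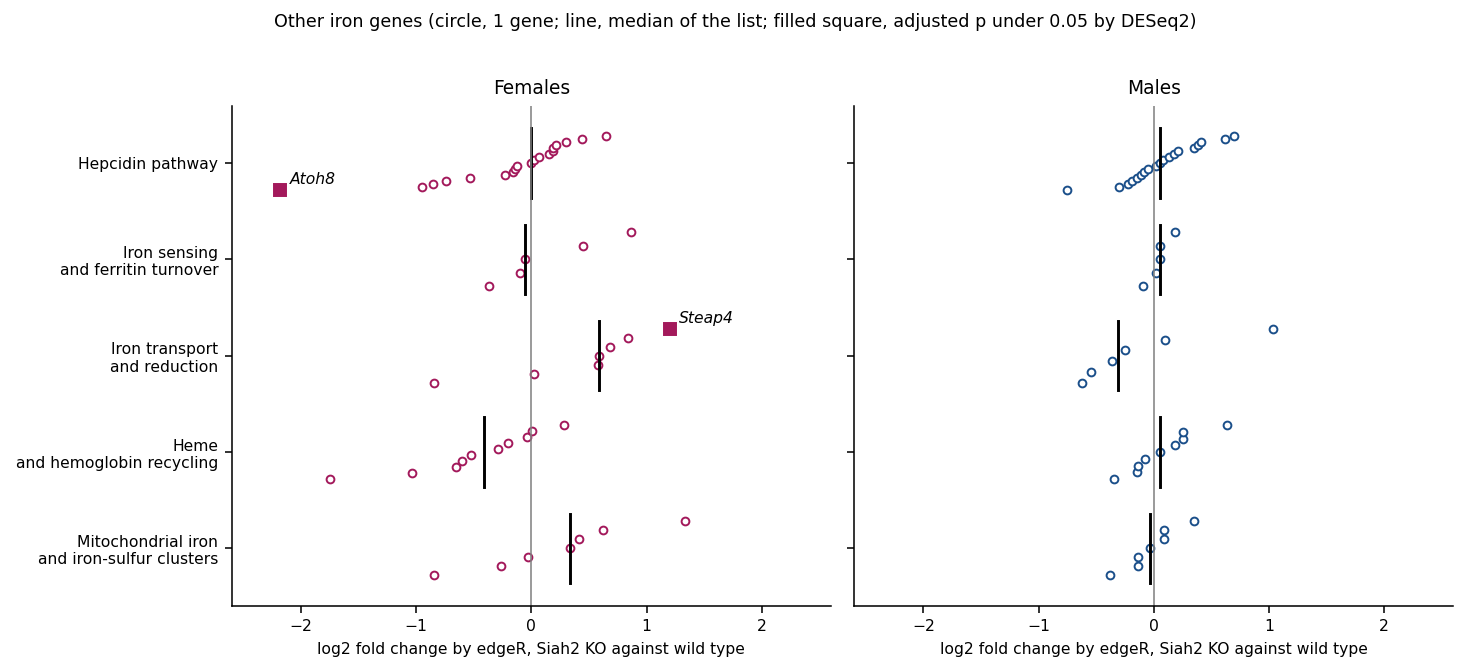
Log2 fold change by edgeR in Siah2-/- against wild type mice (horizontal axis) of the other iron genes tested, by list, in females and in males. Each circle is 1 gene and the black line the median of its list, and the filled squares are the genes that DESeq2 called, Atoh8 and Steap4, both in females.

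Between the sexes, the listed genes were tested in the same way. In wild type mice edgeR called 0 of 48, where 1.39% of all genes were called, and DESeq2 called Abcg2, Atoh8 and Cd163, where 3.68% were called. With wild type female 1091 left out, edgeR called 8 of 48, where 7.73% of all genes were called. Abcg2, a transporter that can carry porphyrins, was at a mean of 34.8 CPM in wild type females against 82.2 CPM in wild type males, and Cd163, the receptor by which macrophages take up hemoglobin, at 26.6 and 8.03 CPM. In Siah2-/- mice edgeR called 6 of 46, where 11.5% of all genes were called. Slc39a8 (log2 fold change 1.17), a metal transporter, Steap4 (0.76) and Id3 (0.55) were higher in females, and Abcg2 (−1.13), Tmprss6 (−0.77) and Blvrb (−0.61), which reduces biliverdin, were higher in males. DESeq2, which called 8.2% of the genes with an adjusted p, called these 6 and Lcn2, which binds siderophores that carry iron. Lcn2 was at 5.02 ± 2.58 CPM (SD, n = 3) in Siah2-/- females on 4 to 28 reads, and at most 1 read was counted for it in each Siah2-/- male.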

How the data were processed

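Raw read counts per gene were deposited by the authors as 1 table per sex, each with 23420 gene symbols and a column per mouse. Per the labels, libraries were made with the QuantSeq 3′ kit, and the submitters' processing notes name STAR, DESeq and mm10, without versions. The study's methods state that reads were trimmed, mapped and analysed with DESeq2 on BaseSpace. Counts came without molecular identifiers. The 10 members and all gene lists were chosen with earlier results of these data known.

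The deposited counts were tested with edgeR 4.0.16 in R 4.3.3 (quasi-likelihood F test, two-sided, filterByExpr, TMM factors, Benjamini-Hochberg adjustment over all genes tested, threshold 0.05) in 6 comparisons. Only the groups compared entered a fit, except that the sex difference and the combined comparison used 12 mice. A log2 fold change is the first group minus the second, with its SE and 95% interval from the same fit. Alternatives were DESeq2 1.42.0, limma-voom 3.58.1 with and without sample quality weights, DESeq2's size factors (RLE), genes kept at any count (1 or more), a minimum of 10 counts per library, removal of the ribosomal transcript Rn45s, 1 fit of all mice, a sex term, and leaving out each mouse. The choices to run DESeq2 without wild type female 1091, and to count the other listed iron genes without it, were made after seeing the data. The fits were tested on simulated data. Named genes were the 10 members, Siah2, each listed iron gene called by edgeR or DESeq2, the 3 listed genes with the smallest p in each comparison, and the best matches by Pearson's r of log2 CPM (prior count 3). Hfe2 is Hjv in RefSeq. The table of promoters held no entry for Trf, Slc40a1 or Hfe2. BLAST 2.17.0 was used to match the 3′ ends. In 27 rows the gene symbol had become a date, which held at most 0.272% of counts.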

Additional observations from a re-analysis of the deposited data

Results flagged for a closer look

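The change of Hamp2 between Siah2-/- and wild type mice was called as different between females and males by 1 of 2 tests of that difference itself. DESeq2 gave a difference of 2.91 on the log2 scale (adjusted p = 0.0339). The difference by edgeR was 2.95 (adjusted p = 0.0847), which does not pass the threshold of 0.05. Siah2-/- females had 788 ± 311 CPM (SD, n = 3) against 357 ± 91.6 CPM in wild type females, and Siah2-/- males 13.7 ± 7.34 CPM against 45.9 ± 37.0 CPM in wild type males. Leaving out 1 mouse moved the edgeR difference to between 2.06, without wild type male 1086 (adjusted p = 0.211), and 3.30, without wild type male 1055, and only without wild type female 1091 did it pass the threshold. The male change alone went from −1.84 to −0.95 without wild type male 1086. No group has 4 mice, so no single mouse was tested as an outlier.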

How the results depend on the processing

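No paired analysis was possible because the mouse numbers differ between all 4 groups. Of the log2 fold changes of members, 459 kept direction and side of the threshold under the other settings, 24 newly passed, 2 no longer passed and 25 changed sign. With 1 mouse left out, 427 kept both, 4 newly passed, 10 no longer passed and 39 changed sign. Depth limits Tfrc, with 27 to 72 reads per library, and Hamp2 in males, with 22 to 176. Among the other listed genes it limits Atoh8 and Mon1a, which had 11 to 17 and 6 to 10 reads per library in Siah2-/- females. The cause of each change below was not tested.

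In females the count of members called was 0 by edgeR, 1 with DESeq2, 4 with limma-voom and sample quality weights (Hamp2, Trf, Fth1, Ftl1), 1 with no filter (Hamp2), 3 with DESeq2 without wild type female 1091 (Trf, Fth1, Ftl1) and 0 to 2 with 1 mouse left out. In males it was 0, 1 with no filter (Hamp2, log2 fold change −1.80, where 0.179% of genes were called) and 0 to 0 with 1 mouse left out. For the sex difference of the change it was 0, 1 with DESeq2, 3 with quality weights (Hamp2, Trf, Fth1), 1 with no filter, 3 with DESeq2 without 1091 and 0 to 1 with 1 mouse left out. Between wild type females and males it was 1, 3 with quality weights (Hamp2, Trf, Ftl1), 2 with no filter (Hamp, Hamp2), 2 in the fit of all 12 mice (Hamp2, Trf), 3 with DESeq2 without 1091 and 0 to 2 with 1 mouse left out. Between Siah2-/- females and males it was 3, 1 in the fit of all 12 mice (Hamp2) and 1 to 2 with 1 mouse left out.

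Among the sign changes, Hamp2 in the combined comparison was −0.33 with limma-voom and −0.17 with a sex term. Slc40a1 in females was −0.20 with quality weights and −0.22 with DESeq2 without 1091. Cp in males was −0.0081 with limma-voom and −0.0098 with quality weights. The sex difference of Slc40a1 was −0.019 with DESeq2 without 1091. Between wild type sexes, Fth1 was −0.036 with DESeq2, −0.030 with limma-voom, −0.22 with quality weights, −0.033 with RLE, −0.00035 without Rn45s, −0.0041 with no filter, −0.038 in the fit of all 12 mice and −0.27 with DESeq2 without 1091. There Tfr2 was −0.094 with quality weights and −0.16 with DESeq2 without 1091, Slc40a1 −0.055 with limma-voom, and Cp 0.10 with quality weights, 0.033 with at least 10 counts and 0.086 with DESeq2 without 1091. Hfe2 between Siah2-/- sexes was 0.012 with at least 10 counts. In the combined comparison Tfrc was −0.0090 with quality weights and −0.050 with DESeq2 without 1091, and Slc40a1 was 0.024 with limma-voom.

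With 1 mouse left out, values that changed sign ranged in females from −0.12 to 0.64 for Hamp and −0.23 to 0.35 for Slc40a1, and in males from −0.33 to 0.052 for Hfe2 and −0.073 to 0.13 for Cp. For the sex difference they ranged from −0.67 to 0.21 for Hamp, −0.020 to 0.55 for Slc40a1 and −0.28 to 0.082 for Hfe2. Between wild type sexes they ranged from −0.14 to 0.30 for Tfr2, −0.24 to 0.10 for Fth1, −0.16 to 0.42 for Slc40a1, −0.088 to 0.32 for Hfe2 and −0.17 to 0.11 for Cp. Between Siah2-/- sexes Hfe2 ranged from −0.14 to 0.071, and in the combined comparison Tfrc from −0.18 to 0.16 and Slc40a1 from −0.18 to 0.079.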
